A study of Mus musculus with 12 samples.

Results

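The comparison described here sets 3 libraries of E18 double knockout fetal membrane against 3 libraries of E12 wild-type fetal membrane, 6 of the 12 libraries of a mouse study, across all genes. The members were taken from the labels: the knockout libraries numbered 1 to 3 at embryonic day 18 and the wild-type libraries numbered 1 to 3 at embryonic day 12. E18 DKO membranes carry a double knockout of biglycan and decorin on a strain given as C3H and C57BL/6. E12 WT membranes are wild-type on C3H. The E12 DKO membranes (the same double knockout and strain as at E18) serve as the second reference, so that the change of stage could be read within the knockout. No allele names, breeding scheme or treatment are given, and all groups are whole fetal membrane that was snap-frozen, ground and sequenced as polyadenylated RNA. Stage, genotype and strain all differ between E18 DKO and E12 WT, and their parts in a difference cannot be told apart from this comparison alone. The study, by its title, treats the double knockout as a model of preterm birth. Where the labels do not say that libraries of a group came from separate dams or litters, p-values measure only the spread between these libraries.

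The fetal membranes enclose the embryo and its fluid. In the mouse they comprise the amnion, a thin epithelium on a collagen-rich mesenchyme, and the yolk sac, whose endoderm absorbs and secretes plasma proteins and whose mesoderm makes the first, primitive red blood cells. Biglycan (Bgn) and decorin (Dcn) belong to the small leucine-rich proteoglycans, which coat collagen fibrils, bind growth factors and set how collagen assembles. Toward term the membranes stop growing, their matrix is remodelled, and inflammatory and hormonal signals prepare them for rupture.

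Total counts of the 6 libraries ran from 19967593 to 27208040 (19967593 to 33065424 over all 12), and values below are CPM (counts scaled to 1000000 per library) on TMM-normalised library sizes, in the order of libraries 1, 2 and 3. E12 WT 1 stood apart from the other E12 libraries. Embryonic beta-globin (Hbb-y and Hbb-bh1) made up 14.85% of its beta-globin counts, against 95.05% and 97.05% in E12 WT 2 and 3, 82.35% to 85.05% in E12 DKO, and 2.669%, 1.326% and 1.731% in E18 DKO. The share was 1.91% ± 0.689 (SD, n = 3) in E18 DKO and 69.0% ± 46.9 (SD, n = 3) in E12 WT, a difference of -67.1 percentage points that an exact permutation test, two-sided, gave p = 0.1, the smallest that 3 libraries against 3 can give. Mitochondrial transcripts took 21.21% of the counts of E12 WT 3 against 3.577% to 7.784% in the other 11 libraries. Spread within groups was largest in E12 WT, with a common biological coefficient of variation of 0.545, and was 0.331 in E18 DKO and 0.177 in E12 DKO. Counts, and the values of the main genes, are therefore given with and without E12 WT 1. The summed CPM of 4 Y-linked genes was 171, 143 and 0.49 in E18 DKO and 160.2, 1.36 and 305 in E12 WT, and these genes were not called.

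The targeted genes were far lower in E18 DKO than in E12 WT, and they differed between the E12 groups in the same direction. Bgn (ENSMUSG00000031375, chrX:73483602-73495933, GRCm38) read 25.1, 23.9 and 24.6 CPM in E18 DKO, 686, 270.4 and 357 in E12 WT and 16.4, 16.2 and 14.3 in E12 DKO. Dcn (ENSMUSG00000019929, chr10:97479500-97518162) read 4.67, 4.78 and 6.21 CPM in E18 DKO, 762, 235 and 325 in E12 WT and 5.92, 8.44 and 6.95 in E12 DKO. For both genes every knockout library lay below every wild-type library of the E12 group, and the highest wild-type value was that of E12 WT 1. On the log2 scale Bgn fell by 4.16 ± 0.35 (SE, adjusted p = 0.000133 by edgeR's quasi-likelihood test, Benjamini-Hochberg adjusted over all genes tested, as throughout) and Dcn by 6.40 ± 0.68 (adjusted p = 0.000331). Without E12 WT 1 the log2 differences were -3.68 and -5.75. Between the knockout stages neither gene passed the test (log2 difference E18 DKO minus E12 DKO 0.65, adjusted p = 0.111, and -0.44, adjusted p = 0.534).

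Of 18153 genes tested, 5044 (27.8%) were called at an adjusted p under 0.05, 2160 (11.9%) higher and 2884 (15.9%) lower in E18 DKO. Among the called genes, 1494 rose and 2120 fell at least 2-fold (a log2 difference of 1), and 317 rose and 706 fell by a log2 difference of 3 or more. In 4567 of the called genes the 3 libraries of each group did not overlap, and over all genes tested 6386 (35.2%) did not overlap. Leaving out E12 WT 1 raised the count to 8727 of 18723 genes (46.6%), 4303 higher (23.0%) and 4424 lower (23.6%), and 4918 of the 5044 genes remained called, each with the same sign. In the other direction, a fit to only the 6 libraries called 1544 genes, 662 higher and 882 lower. The same fit less E12 WT 1 called 6485, 3322 higher and 3163 lower. With other single libraries left out the count was lowest without E12 WT 2 (2766) and without E18 DKO 1 (3005). The cause of these moves was not tested.

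The position of E12 WT 1 was measured over the 3246 genes that were called without it at a log2 difference of at least 2. On a scale with the mean of E12 WT 2 and 3 at 0 and the mean of E18 DKO at 1, computed on log2(CPM + 0.5), the median gene of E12 WT 1 lay at 0.612 (quartiles 0.403 and 0.836). It lay at 0.642 for 1622 genes higher in E18 DKO and at 0.596 for 1624 genes lower there. The E12 DKO libraries lay at 0.0781, 0.0890 and 0.0972 on the same scale. E12 WT 1 was thus nearer to E18 DKO than to the other E12 WT libraries for 64.1% of these genes, while all 3 E12 DKO libraries lay near E12 WT 2 and 3. What E12 WT 1 is was not tested, and its label was kept.

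Genes of milk and of innate defence were among the 12 largest rises. The rises were taken over genes called with and without E12 WT 1, with a mean above 5 CPM and no overlap between groups. Lcn2 (chr2:32384633-32388252), which encodes lipocalin 2, a protein that keeps iron from bacteria, read 2106, 1435 and 865 CPM in E18 DKO and 5.24, 1.18 and 1.71 in E12 WT, a rise of 9.08 ± 1.23 on the log2 scale (adjusted p = 0.000771; 10.01 without E12 WT 1). Its levels in E12 DKO were 0.723, 1.12 and 0.637 CPM, so all E12 libraries of either genotype lay far below the lowest E18 DKO library. Atp6v0d2, a subunit of the proton pump that acidifies vesicles, read 133, 150.5 and 103 CPM in E18 DKO against 0.396, 0.285 and 0.353 in E12 WT (log2 rise 8.53 ± 0.61, adjusted p = 0.000116; 8.66 without E12 WT 1). The casein gene Csn1s2b read 76.2, 76.2 and 36.4 CPM against 0.352, 0.0357 and 0.0588 (8.68 ± 0.70, adjusted p = 0.000123). Beta-casein, Csn2, read 20.3, 10.3 and 3.38 CPM in E18 DKO and had no count in any E12 WT library, which makes it at least 253-fold higher against a floor of 3 counts over the group. These were the only members tested among 8 milk protein genes, and in both the third E18 DKO library was the lowest.

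The defensin gene Defb1 read 35.1, 24.9 and 34.5 CPM against 0.0881, 0.0714 and 0.177, a log2 rise of 8.16 ± 1.10 (8.05 without E12 WT 1). Tat, the tyrosine aminotransferase gene known for its induction by glucocorticoids, read 17.1, 23.8 and 14.1 CPM against 0.308, 0.107 and 0 (6.94 ± 0.81, adjusted p = 0.000422). Dppa3, a maternal-effect and germline gene with near-identical copies in the genome and therefore uncertain, read 22.1, 22.6 and 7.68 CPM in E18 DKO and had no count in E12 WT (at least 403.7-fold higher against 3 counts over the group). The unconventional myosin gene Myo16 had 1380 counts in E18 DKO and 3 in E12 WT, a ratio of 519 after scaling (95% counting interval 177 to 2521). Wfdc12, Scgn, Ms4a4b and Doc2b completed the 12 largest rises, with log2 rises of 7.83, 7.41, 7.08 and 6.94. Each of the 12 genes was called in every alternative that tested it. A call without E12 WT 1 and groups that did not overlap were conditions of the choice, not results.

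**Figure D1:**
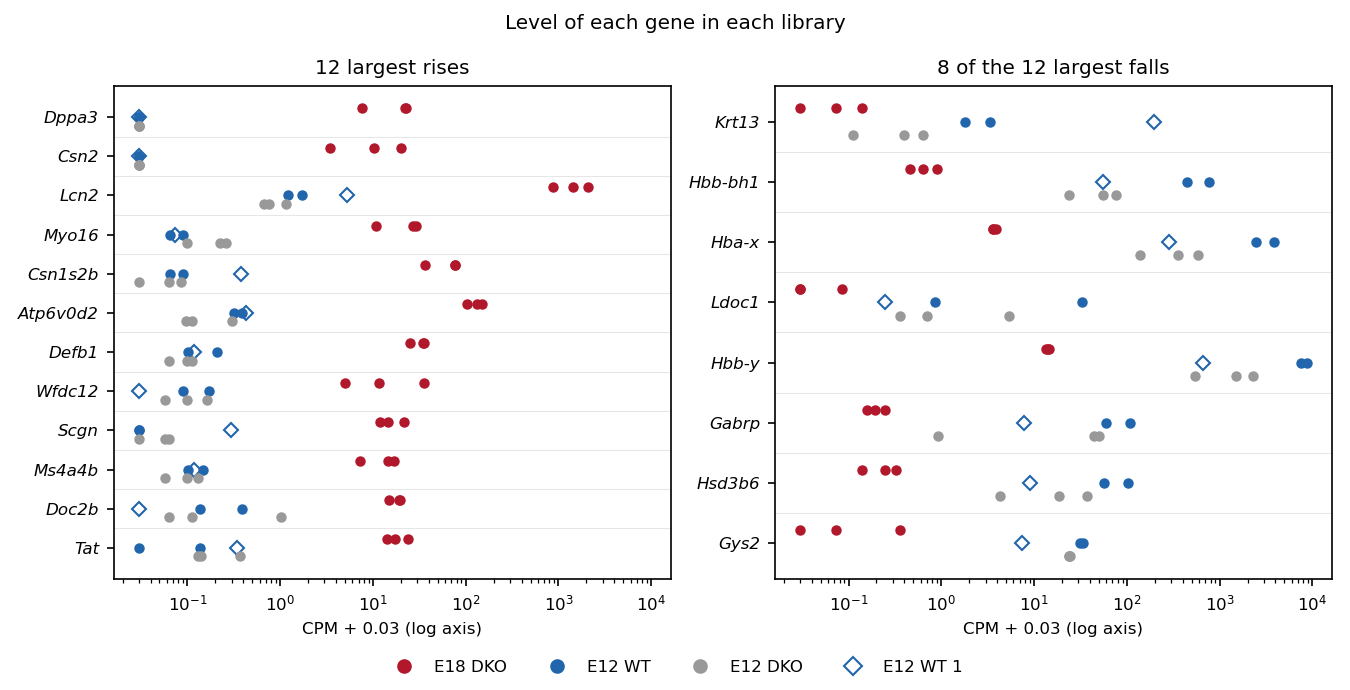
The 12 largest rises and 8 of the 12 largest falls (those described in the text) from E12 WT to E18 DKO, one row a gene, as CPM + 0.03 on a log axis, with a point for each library: E18 DKO red, E12 WT blue with E12 WT 1 as an open diamond, E12 DKO grey. For Lcn2 the E18 DKO libraries sat at 865 CPM or more and the E12 libraries at 5.24 or less, and for Hbb-y the open diamond is the lowest of the E12 WT points.

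Embryonic globins were among the 12 largest falls. Hbb-bh1, Hba-x and Hbb-y, the globin chains of primitive red cells, fell by 9.39 ± 1.08, 9.24 ± 1.01 and 8.67 ± 1.00 on the log2 scale. Hbb-y read 14.2, 13.3 and 14.3 CPM in E18 DKO, 669.5, 8683 and 7626 in E12 WT and 536, 2293 and 1487 in E12 DKO, with E12 WT 1 the lowest of the wild-type libraries yet still above all E18 DKO libraries. The steroid enzyme gene Hsd3b6 read 0.22, 0.299 and 0.109 CPM against 8.98, 102 and 56.3 (fell by 7.99 ± 1.13, adjusted p = 0.000937). Gys2, the liver-type glycogen synthase, read 0, 0.0426 and 0.327 CPM against 7.31, 31.4 and 33.8 (fell by 7.62 ± 1.00).

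Other large falls varied more between libraries. The keratin gene Krt13 read 0.11, 0.0426 and 0 CPM in E18 DKO and 197, 1.78 and 3.3 in E12 WT, so that E12 WT 1 alone carried the high value. Its log2 difference of -10.26 ± 2.33 (adjusted p = 0.00904) was -5.52 without E12 WT 1, and limma voom gave no call (adjusted p = 0.173). Ldoc1, a small nuclear protein gene, had 1 count in E18 DKO and 929 in E12 WT, of which nearly all lay in E12 WT 2 (0.22, 32.5 and 0.824 CPM). It lost its call without that library (adjusted p = 0.124), without E18 DKO 1, 2 or 3, and with limma voom. Gabrp, a GABA receptor subunit gene of amnion-type epithelium, read 0.165, 0.128 and 0.218 CPM against 7.84, 58.9 and 108 in E12 WT and 44.7, 49.9 and 0.886 in E12 DKO (fell by 8.40 ± 2.05, adjusted p = 0.0125). Its call was lost without E18 DKO 1 (adjusted p = 0.0507), without E18 DKO 2 and with limma voom, while its log2 difference stayed between -8.93 and -7.57 in every alternative. All 3 E12 WT libraries lay far above all 3 E18 DKO libraries.

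Collagens and cartilage genes were mostly lower in E18 DKO, while the small leucine-rich proteoglycans were mixed. Of 14 tested small leucine-rich proteoglycan genes, 5 fell and 2 rose, against 15.9% lower and 11.9% higher over all genes tested. Their median log2 difference was -0.68, against -0.07 over all genes tested. Beside the deleted genes the falls were Lum, Ogn and Fmod, which encode lumican, osteoglycin and fibromodulin, relatives that also bind collagen. Lum read 108, 123 and 105 CPM in E18 DKO, 490.1, 695 and 833 in E12 WT and 405, 434 and 438 in E12 DKO, a log2 difference of -2.59 ± 0.26 with no overlap (-2.77 without E12 WT 1). Ogn fell by 2.87 ± 0.26 (adjusted p = 0.000148). The 2 rises, Chad and Tsku, were named after their values were seen (adjusted p = 0.0358 and 0.00634). Without E12 WT 1 the list held 7 rises and 6 falls and its median was 0.02, so the lower median of the list rested on that library.

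Among 22 fibrillar and associated collagen genes, 12 fell and 1 rose (median log2 difference -1.43), with 10 to 13 falls when any 1 library was left out. Col6a1 was the rise (log2 1.21, adjusted p = 0.0376; named after its value was seen). The 6 largest falls of the list were the collagens of cartilage. Col2a1, the main cartilage collagen, read 2.36, 3.33 and 2.23 CPM in E18 DKO and 18.6, 73.2 and 115 in E12 WT (fell by 4.70 ± 0.64). Col9a2 read 36, 27.4 and 20.4 CPM against 161, 948 and 1046, and Col9a3 fell by 6.35 ± 0.87. In each of these genes E12 WT 1 was several times below the other wild-type libraries and above E18 DKO.

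A list of 13 tested cartilage markers, which shares 6 genes with the collagens, had 10 falls and 1 rise (median log2 difference -3.99; 8 to 10 falls with any 1 library left out). Its summed level was 179, 142 and 153 CPM in E18 DKO, 359, 1708 and 1990.5 in E12 WT and 1345, 1290.4 and 2078 in E12 DKO, so E12 WT 1 again lay between. Hapln1, the link protein that joins hyaluronan to proteoglycans, fell by 4.03 ± 0.79. The 1 rise was Acan, the large cartilage proteoglycan, at low levels in both groups (named after its value was seen). Since these are whole-membrane RNA samples, fewer cells of a type and less RNA per cell cannot be told apart here or in any result below.

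Fibre assembly and crosslinking genes moved both ways. Of 29 tested genes 7 fell and 3 rose, against 15.9% lower and 11.9% higher over all genes tested. Fbln1, the elastic-fibre and basement-membrane protein fibulin 1, and Fbn2, the early microfibril protein fibrillin 2, fell by 3.09 ± 0.43 and 2.89 ± 0.51. Tgm2, a transglutaminase that crosslinks matrix proteins, read 992, 889 and 629 CPM against 290.1, 227 and 148, a log2 rise of 1.92 ± 0.29 (adjusted p = 0.00134). Without E12 WT 1 the list held 11 rises and 8 falls, and it held as few as 1 rise and 2 falls when another single library was left out.

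Among 32 tested proteases and inhibitors 6 rose and 1 fell (median log2 difference 0.66), and 16 rose without E12 WT 1. Mmp19, a matrix metalloproteinase, read 95.1, 109.9 and 128 CPM in E18 DKO and 17.6, 6.99 and 11.2 in E12 WT (log2 rise 3.22 ± 0.58, adjusted p = 0.00304; 3.62 without E12 WT 1). Ctss, the lysosomal cathepsin S, rose by 2.24 ± 0.37. The list's rises fell to 3 without E18 DKO 1. Basement membrane genes had 1 rise and 4 falls among 25 tested, shares near or below those over all genes (11.9% higher, 15.9% lower). It had 11 rises without E12 WT 1 and 1 fall without E18 DKO 2. Of 23 tested hyaluronan and other proteoglycan genes, 6 rose, among them the syndecans Sdc2 and Sdc3 (1.76 and 1.18), and 5 fell, with 3 rises and 2 falls without E12 WT 2 or E18 DKO 1.

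In the growth factor pathways single members changed, in both directions. In TGF-beta and BMP signalling 4 of 30 tested genes rose and 5 fell, shares near those over all genes tested, with 10 rises without E12 WT 1 and 1 fall without E12 WT 2 or E18 DKO 1. The rises included Id1 and Id3, transcriptional inhibitors that BMP signals switch on (log2 rises 1.70 ± 0.33 and 2.06 ± 0.44). Of 31 tested Wnt genes 7 fell and 1 rose (median log2 difference -0.82), against 15.9% lower and 11.9% higher over all genes tested. The falls included 3 feedback inhibitors: Rnf43, a ligase that removes Wnt receptors, fell by 4.39 ± 0.48, and Dkk2, a secreted antagonist, by 2.71 ± 0.53. The third, Notum, a secreted enzyme that inactivates Wnt proteins, had 3 counts in E18 DKO and 63 in E12 WT (18.6-fold lower, 95% counting interval 6.08 to 92.6). Leaving out 1 library moved the Wnt falls between 5 and 11 and the rises between 0 and 7, the highest of both without E12 WT 1.

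In the insulin-like growth factor system a binding protein rose in all 3 E18 DKO libraries. Igfbp3, a binding protein that carries IGFs, read 1763, 2374 and 1902 CPM in E18 DKO, 237, 109.9 and 154 in E12 WT and 108, 72 and 93.4 in E12 DKO. The rise of 3.59 ± 0.32 on the log2 scale (adjusted p = 0.000148) was 3.93 without E12 WT 1. Igfbp2, another binding protein, fell by 3.16 ± 0.63, and Igf2bp1, an RNA-binding protein of fetal growth, fell by 1.67 ± 0.24. The list as a whole had 3 rises and 5 falls among 20 tested genes (11.9% higher and 15.9% lower over all genes tested). It had 8 rises without E12 WT 1 and 2 falls without E12 WT 2 or E18 DKO 1. Igf2 itself was not called (log2 0.20, adjusted p = 0.599).

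All 32 mitosis and spindle genes fell. The list's median log2 difference was -4.21, against -0.07 over all genes tested, of which 15.9% were called lower. All 32 were called lower in every alternative tried, including the fit to only the 6 libraries. Cell-cycle genes are known to carry CCAAT boxes and a cell cycle homology region of the form TTTGAA. Promoters of 3 of the 32 genes are printed, chosen because they hold both motifs in the 120 bases shown. The 120 bases before each RefSeq start site (GRCm38.p6) are given 5′ to 3′ on the gene's strand, in lower case with CCAAT and TTTGAA in capitals on either strand, so that ATTGG and TTCAAA are the same motifs read on the other strand.
Kif11, chr19:37376262-37376381, plus strand: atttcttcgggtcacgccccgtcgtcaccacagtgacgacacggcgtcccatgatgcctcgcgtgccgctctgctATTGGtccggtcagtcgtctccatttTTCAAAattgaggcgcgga
Top2a, chr11:99024190-99024309, minus strand: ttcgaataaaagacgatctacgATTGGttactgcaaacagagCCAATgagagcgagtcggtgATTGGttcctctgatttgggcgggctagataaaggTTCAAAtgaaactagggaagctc
Cdc20, chr4:118437344-118437463, minus strand: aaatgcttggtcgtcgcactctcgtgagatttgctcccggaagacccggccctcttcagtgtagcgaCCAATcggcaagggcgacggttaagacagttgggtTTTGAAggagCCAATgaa

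In the 250 bases before the start, CCAAT was found on either strand in 21 of 26 mitosis promoters in the table (80.8%), against 34.5% of 27025 promoters, and in 11 of 14 promoters of MHC class I genes (78.6%), a list that rose. TTTGAA was found in 8 of 26 mitosis promoters (30.8%), against 16.3% of all promoters and 11% of those of genes tested. A match is a description of letters, not of a bound site. Kif11, the motor that pushes spindle poles apart, read 1.26, 1.75 and 1.91 CPM in E18 DKO, 14.9, 68.6 and 45 in E12 WT and 72.7, 76.6 and 70.2 in E12 DKO, and fell by 4.70 ± 0.48 (adjusted p = 0.000269). Top2a, the topoisomerase that untangles chromosomes, read 5.17, 3.63 and 6.54 CPM in E18 DKO, 36.9, 144 and 151 in E12 WT and 182, 164 and 172 in E12 DKO, and fell by 4.44 ± 0.47. Cdc20, the activator of the anaphase-promoting complex, read 1.1, 2.35 and 2.78 CPM against 15.3, 77.7 and 70.4 and fell by 4.71 ± 0.57. For all 3 genes E12 WT 1 was the lowest E12 library and still above every E18 DKO library.

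Birc5, which encodes the chromosomal passenger protein survivin, fell by 5.22 ± 0.49 from E12 WT and had a log2 difference of -5.30 from E12 DKO. The summed level of the 32 genes was 121, 125 and 159.6 CPM in E18 DKO, 589, 2405 and 2389.6 in E12 WT and 2315, 2236 and 2297 in E12 DKO. The E12 DKO sums lay near those of E12 WT 2 and 3, and E12 WT 1 was the lowest of the E12 libraries. Kinetochore and spindle genes Hmmr and Nuf2 fell by 5.32 and 4.58.

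DNA replication genes fell with them. Of 30 tested, 27 were lower and none higher (median log2 difference -2.23; 24 to 28 lower with any 1 library left out, 21 in the fit to only the 6 libraries). Mcm5, a subunit of the helicase that opens DNA at origins, read 2.36, 2.81 and 2.18 CPM against 13, 63.9 and 48.8 (fell by 4.09 ± 0.50). Cdc45, which completes that helicase, fell by 3.40 ± 0.44, and the transcription factor genes E2f1 and E2f2, which drive entry into DNA synthesis, by 2.45 ± 0.29 and 3.70 ± 0.45. The genes not called were Gins2, Orc1 and Rrm2 (log2 -0.68, -0.46 and 0.33; named after their values were seen).

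Cholesterol synthesis genes were lower as a group, with 17 falls and 1 rise among 26 tested genes (median log2 difference -1.90; 17 to 20 falls with any 1 library left out). Dhcr7, the enzyme of the last step, read 3.08, 4.05 and 6.32 CPM in E18 DKO and 51.6, 187 and 284 in E12 WT (fell by 5.28 ± 0.55, adjusted p = 0.000308). The groups did not overlap. Lss and Cyp51, which close and trim the sterol ring, fell by 2.46 ± 0.21 and 2.44 ± 0.27. The 1 rise was the sterol exporter Abcg1 (log2 3.23; named after its value was seen). Unlike for mitosis, the summed level of E12 WT 1 was not between the groups: the sums were 1482, 1889 and 1755 CPM in E18 DKO and 3858, 2956 and 3541 in E12 WT.

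**Figure D2:**
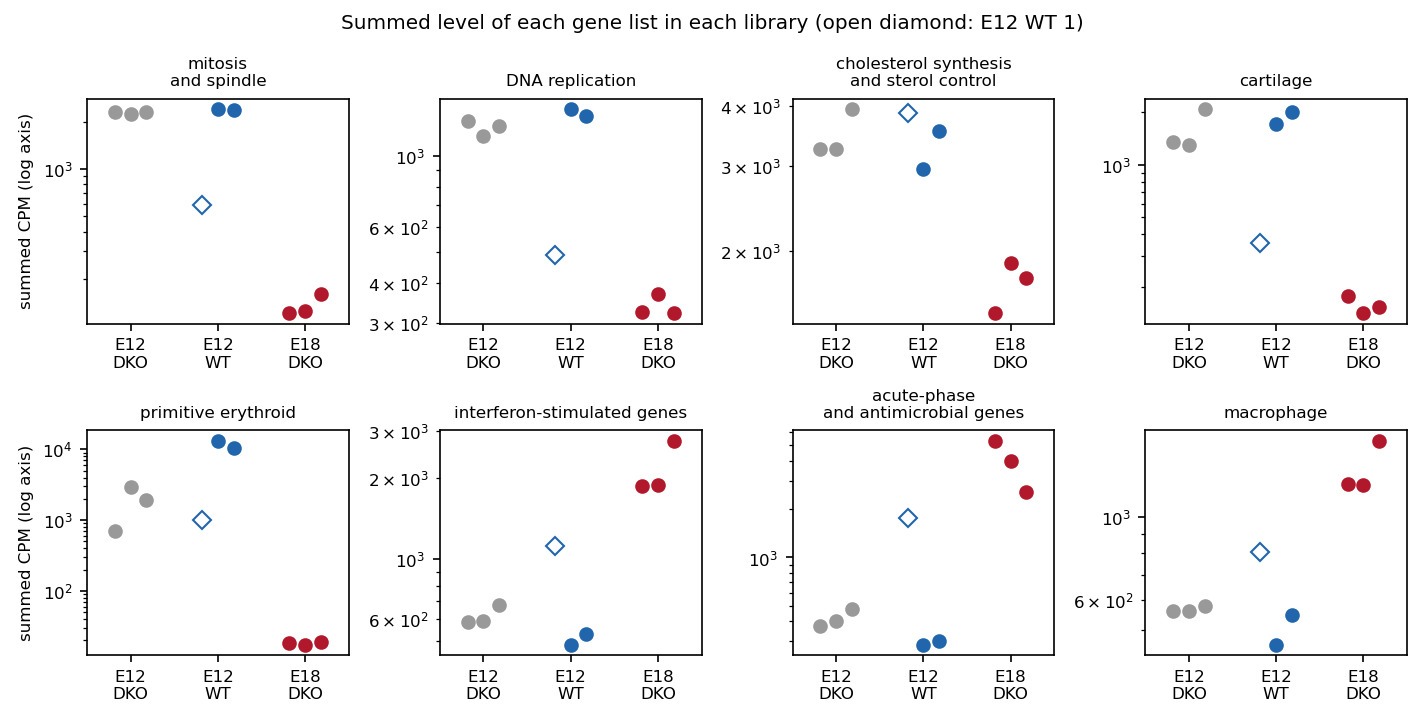
Summed CPM of 8 gene lists in each library on a log axis, with columns for E12 DKO, E12 WT (E12 WT 1 as an open diamond) and E18 DKO. Mitosis genes summed to 121 to 159.6 CPM in E18 DKO, 588.5 in E12 WT 1 and 2236 or more in the other E12 libraries, and interferon-stimulated genes were higher in all 3 E18 DKO libraries than in any E12 library.

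Interferon-stimulated genes rose as a group. Of 34 tested, 27 were higher and none lower (median log2 difference 2.09; 11.9% of all genes tested were called higher). Without E12 WT 1, 33 were higher; without E12 WT 2, 19, the fewest with any 1 library left out; and in the fit to only the 6 libraries, 14. Interferon signals end in transcription factors that bind a repeated GAAA core, and promoters of 3 members are shown because that repeat stands within 120 bases of their start. The sequences are given as above, with each GAAANNGAAA in capitals. In Oas1a and Isg15 neighbouring matches overlap.
Oas1a, chr5:120907526-120907645, minus strand: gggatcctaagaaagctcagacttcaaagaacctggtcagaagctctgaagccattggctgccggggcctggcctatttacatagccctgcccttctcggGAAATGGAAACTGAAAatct
Oas3, chr5:120777660-120777779, minus strand: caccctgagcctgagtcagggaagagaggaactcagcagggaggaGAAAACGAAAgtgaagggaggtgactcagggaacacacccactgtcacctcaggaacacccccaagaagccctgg
Isg15, chr4:156200819-156200938, minus strand: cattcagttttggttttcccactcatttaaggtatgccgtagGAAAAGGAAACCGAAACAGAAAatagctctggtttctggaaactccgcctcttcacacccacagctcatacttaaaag

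GAAANNGAAA was found on either strand in the 250 bases before the start of 11 of 24 interferon-stimulated genes in the table (45.8%) and of 3.04% of all promoters. Oas3, a synthase of the messenger that activates RNase L, read 7.64, 5.08 and 8.99 CPM in E18 DKO and 1.63, 0.464 and 0.235 in E12 WT (log2 rise 3.20 ± 0.69, adjusted p = 0.00735; 4.30 without E12 WT 1). Oas1a, of the same family and with close paralogs that make its counts uncertain, read 10.6, 11.6 and 16.1 CPM against 4.27, 4.67 and 1.77 (log2 rise 1.83 ± 0.39). Isg15, a ubiquitin-like modifier, read 33.8, 24 and 56.8 CPM against 12, 4.17 and 3.35 (log2 rise 2.55 ± 0.63, adjusted p = 0.0131) and lost its call without E12 WT 2 (adjusted p = 0.0548). In all 3 genes the E18 DKO libraries lay above the E12 WT libraries.

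Usp18, the protease that removes Isg15 from proteins, read 103, 116 and 106 CPM in E18 DKO, 21.7, 3.43 and 6.18 in E12 WT and 4.08, 4.98 and 6.87 in E12 DKO (log2 rise 3.38 ± 0.55, adjusted p = 0.00187; 4.51 without E12 WT 1). E12 WT 1 was the highest E12 library for this gene. The RNA sensor Dhx58 rose by 2.23 ± 0.37 and Oasl1 by 2.72 ± 0.46. Summed over the list, levels were 1880.4, 1889 and 2759.7 CPM in E18 DKO, 1121, 482 and 527 in E12 WT and 585, 592 and 680.0 in E12 DKO.

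Antigen presentation genes rose beside them. Among 16 tested MHC class I genes 12 were higher and none lower (median log2 difference 1.63), 7 without E12 WT 2 and 4 in the fit to only the 6 libraries. H2-Q4, a non-classical class I gene with near-identical relatives and therefore uncertain, rose by 1.71 ± 0.37. Psmb8, a subunit of the immunoproteasome, rose by 1.98 ± 0.36. H2-K1, a classical class I gene that differs between strains, read 441, 373 and 461 CPM against 245, 85.4 and 114 (log2 rise 1.52 ± 0.33), and its call was lost in the fit to only the 6 libraries (adjusted p = 0.0612). Strain differs between the groups, and its part in the class I values was not tested.

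Acute-phase and antimicrobial genes had 13 rises and no fall among 22 tested (median log2 difference 2.46; 9 to 18 rises with any 1 library left out, 18 without E12 WT 1). Beside Lcn2, Serpina3m, a protease inhibitor, read 13.1, 16 and 13.9 CPM in E18 DKO and 0.396, 0.0714 and 0 in E12 WT (log2 rise 6.44 ± 0.80). Saa1, serum amyloid A, rose by 3.88 ± 0.48, and Cp, the copper-binding ferroxidase ceruloplasmin, by 1.97 ± 0.28. The list summed to 5335, 3971 and 2542 CPM in E18 DKO and 1757, 286 and 302 in E12 WT, with E12 WT 1 between. Of 28 tested cytokine, chemokine and Toll-like receptor genes 12 rose and 1 fell, but only 5 rose without E12 WT 2 and 1 in the fit to only the 6 libraries. Ccl7, a chemokine that attracts monocytes, rose by 3.36 ± 0.70.

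Complement genes had 8 rises and 2 falls among 21 tested, against 11.9% higher and 15.9% lower over all genes tested. With any 1 library left out the rises ran from 7 to 12, and there were 6 in the fit to only the 6 libraries. C1qa, C1qb and C1qc, the chains of C1q that macrophages make, rose by 1.94 ± 0.31, 1.32 ± 0.19 and 1.35 ± 0.20. C9, a pore-forming component, fell by 3.20 ± 0.42. Macrophage markers, which include the C1q genes, had 9 rises and no fall among 16 tested (median log2 difference 1.24; 7 to 11 rises with any 1 library left out). None of the 16 was at 0 throughout a group, and their summed level was 1226, 1211 and 1594 CPM in E18 DKO and 806, 456 and 546 in E12 WT. These sums moved with the interferon, acute-phase and complement results, and their part in them was not tested. Lyve1, a hyaluronan receptor of macrophages and lymphatic vessels, rose by 1.23 ± 0.19.

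Neutrophil markers summed to 226, 279 and 202 CPM in E18 DKO and 94.7, 9.45 and 5.65 in E12 WT, mostly from Cxcr2, which was not called (log2 2.79, adjusted p = 0.0908). Only 6 of its 13 genes passed the filter on low counts, and 2 of them rose and 1 fell (11.9% higher and 15.9% lower over all genes tested). With any 1 library left out the rises ran from 1 to 3. The granule gene Elane and the surface marker Ly6g were at 0 in all E18 DKO libraries. S100a9, a calcium-binding protein of granulocytes, rose by 3.88 ± 0.81. S100a8, which also rose, lost its call in 10 of the 18 alternatives that tested it. Of 15 lymphoid and mast cell genes only 3 were tested, and 2 rose (1 without E12 WT 1). The sums of this list overlapped, at 42.5, 38.1 and 16.56 CPM in E18 DKO and 4.76, 16.63 and 4.83 in E12 WT. The mast cell protease gene Tpsb2 rose by 5.50 ± 0.98. The other rise, the mast cell gene Cpa3, lost its call in 8 of 21 alternatives.

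**Figure D3:**
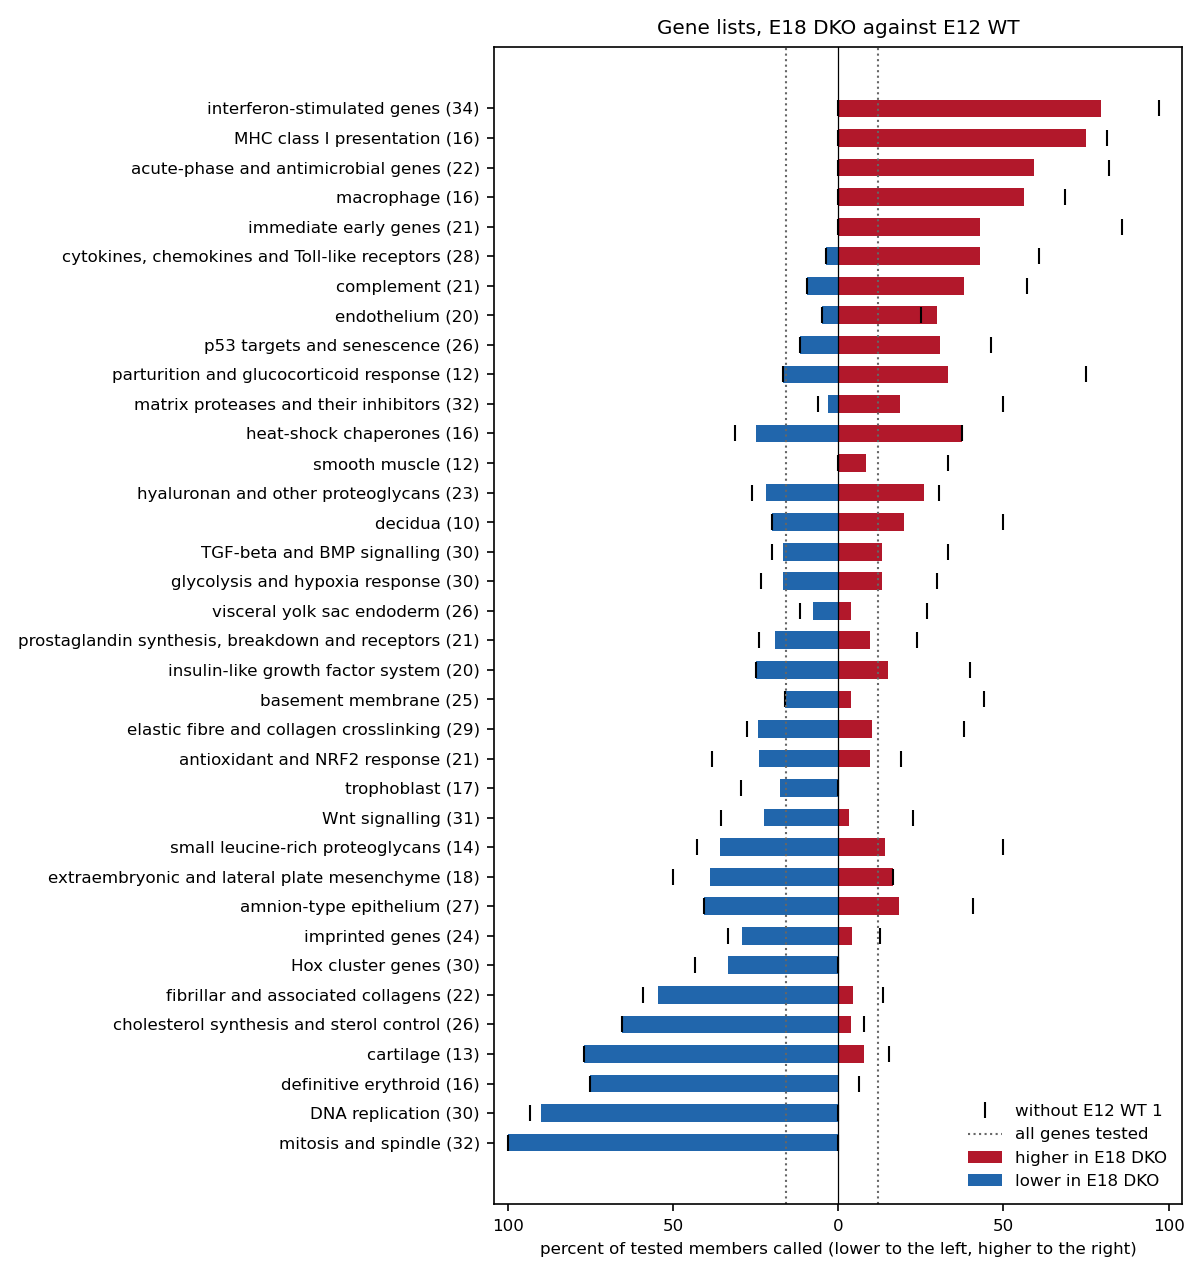
Percent of tested members called lower (blue, to the left) and higher (red, to the right) in E18 DKO than in E12 WT for each list with at least 10 tested genes. Ticks give the same shares without E12 WT 1 and dotted lines the shares over all genes tested (15.9% lower, 11.9% higher); mitosis stands at the lower end with all of 32 members and interferon-stimulated genes at the higher end with 27 of 34.

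Genes of labour and of steroid action moved both ways. Among 12 tested parturition and glucocorticoid response genes 4 rose and 2 fell, none rose without E12 WT 2 and 9 rose without E12 WT 1. Hsd11b2, which inactivates glucocorticoids, read 1.98, 2.22 and 2.34 CPM in E18 DKO, 18, 216 and 195 in E12 WT and 171, 164 and 183 in E12 DKO (fell by 6.03 ± 0.75, adjusted p = 0.000524). E12 WT 1 was the lowest E12 library here, at several times the E18 DKO level. In the prostaglandin list 2 of 21 tested genes rose and 4 fell, near the shares over all genes tested (11.9% higher, 15.9% lower). It had 5 rises without E12 WT 1 and 1 fall without E12 WT 2. Ptgs1, the constitutive cyclooxygenase, read 37.4, 29.4 and 30.4 CPM against 13.2, 5.57 and 5.77 (log2 rise 1.99 ± 0.32, adjusted p = 0.00176). Pla2g4a, the phospholipase that frees arachidonic acid, fell by 1.23 ± 0.22, and Ptgs2, the inducible cyclooxygenase, was not called (log2 -0.10, adjusted p = 0.881).

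Stress and growth-arrest genes moved in part. Of 26 tested p53 target and senescence genes 8 rose and 3 fell, with 12 rises without E12 WT 1 and 5 without E12 WT 2 or E18 DKO 2. Pmaip1, a p53 target that promotes apoptosis, rose by 2.43 ± 0.48, and Lmnb1, the lamin lost in senescent cells, fell by 3.02 ± 0.36. Among 21 tested immediate early genes 9 rose and none fell (median log2 difference 1.52), 18 rose without E12 WT 1, and 6 without E12 WT 2 or E18 DKO 1. Nr4a1 and Atf3 rose by 2.04 ± 0.37 and 1.71 ± 0.33. Heat-shock chaperones split: Hspa1a and Hspa1b, a near-identical pair whose reads can be exchanged, rose by 3.37 and 2.71, while the mitochondrial chaperone Hspd1 and the endoplasmic reticulum chaperone Hsp90b1 fell by 1.97 ± 0.24 and 1.27 ± 0.24. Of 30 tested glycolysis and hypoxia genes 4 rose, among them the mTOR inhibitor Ddit4 (2.48 ± 0.35), and 5 fell, among them the glucose transporter Slc2a3 (1.90 ± 0.32). These shares lay near those over all genes tested (11.9% higher, 15.9% lower), and with 1 library left out the rises ran from 2 to 9 and the falls from 2 to 7, the highest of both without E12 WT 1 and the lowest of both without E12 WT 2 or E18 DKO 2.

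Hox genes, which record position along the body, and imprinted genes had more falls than rises. Of 30 tested Hox genes 10 fell and none rose (median log2 difference -1.18), but only 3 fell without E12 WT 2. Hoxd9 fell by 3.13 ± 0.52, and Hoxa7 had 2 counts in E18 DKO and 86 in E12 WT (38.1-fold lower, 95% counting interval 10.2 to 319.6). Among 24 tested imprinted genes 7 fell and 1 rose (15.9% of all genes tested were called lower), and 3 fell without E18 DKO 2. Magel2 fell by 5.61 ± 0.92, Phlda2, which restrains placental growth, fell by 4.12 ± 0.68, and Dlk1, a Notch-like fetal protein, fell by 1.67 ± 0.32.

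Red blood cell markers were mostly lower in E18 DKO than in E12 WT. All 3 primitive erythroid globins fell, in every alternative tried. Of 16 tested definitive erythroid genes 12 fell and none rose (median log2 difference -3.62), with 11 or 12 falls when any 1 library was left out. Leaving out E12 WT 1 gave 1 rise. Against E12 DKO, 8 were lower and 1 higher. The definitive list summed to 1177, 1897 and 2044 CPM in E18 DKO, 6769, 3503 and 3413 in E12 WT and 383, 1381 and 912 in E12 DKO. The sums of the knockout stages thus overlapped. Slc4a1, the anion exchanger of the red cell membrane, fell by 5.84 ± 0.82. Epb42, a protein of the red cell skeleton, had 3 counts in E18 DKO and 653 in E12 WT (193-fold lower, 95% counting interval 65.7 to 937). Ppbp, a platelet chemokine, fell by 5.94 ± 1.31, and had a log2 difference of -3.47 without E12 WT 1, the highest library of E12 WT (159, 9.88 and 12 CPM). The summed primitive globin level was 18.4, 17.3 and 19 CPM in E18 DKO and 1013, 13310.1 and 10550.4 in E12 WT.

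Epithelial and mesenchymal markers changed in both directions. Of 27 tested amnion-type epithelium genes 11 fell and 5 rose, and the 5 rises became 11 without E12 WT 1 and none in the fit to only the 6 libraries. The falls included transcription factors of surface epithelium: Gata3 fell by 4.52 ± 0.77 and Tfap2a by 2.54 ± 0.48. Cldn6, an embryonic tight junction protein, read 15.9, 46.7 and 87 CPM against 156, 527 and 482 (fell by 2.96 ± 0.56). Among 18 tested mesenchyme genes 7 fell and 3 rose (15.9% and 11.9% over all genes tested), with 2 falls without E18 DKO 2 and 1 rise without E12 WT 2. Pitx1, a hindlimb and mesenchyme transcription factor, read 0.66, 1.15 and 0.327 CPM against 10.7, 56.9 and 47.5 (fell by 5.71 ± 0.70), while the growth factor receptor gene Pdgfra rose by 1.32 ± 0.31.

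Yolk sac endoderm markers were detected in both groups and mostly not called: 1 of 26 tested rose and 2 fell, against 7 rises and 3 falls without E12 WT 1 and 7 falls without E18 DKO 3. Their sums were 91706, 127781 and 176081 CPM in E18 DKO and 191526, 84174 and 83114 in E12 WT. As a sum this list was thus detected in all 6 libraries. So was amnion-type epithelium, with sums of 10675, 9209 and 8262 CPM in E18 DKO and 7649, 4854 and 5118 in E12 WT. A sum can rest on a few abundant genes. Single amnion-type markers such as Gabrp were far lower in E18 DKO (0.165, 0.128 and 0.218 CPM) than in E12 WT (7.84, 58.9 and 108). Spink1, a trypsin inhibitor, was the rise of the yolk sac list (873, 589.5 and 763 CPM against 239, 142 and 219, log2 1.89). Foxa3, an endoderm transcription factor, fell by 1.59 ± 0.26. Endothelial genes had 6 rises and 1 fall among 20 tested (11.9% of all genes tested were called higher), with 3 rises without E12 WT 2, E12 WT 3 or E18 DKO 3. Robo4, a receptor that stabilises vessels, read 64.5, 67.3 and 58.7 CPM against 20, 14.1 and 19 (log2 rise 1.84 ± 0.18, adjusted p = 0.00021), and Eng, a TGF-beta co-receptor of endothelium, rose by 1.76 ± 0.30.

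Markers of the neighbouring trophoblast and decidua were detected in both groups. Trophoblast genes summed to 74.2, 173 and 52.8 CPM in E18 DKO and 61.8, 409 and 206 in E12 WT. Of 17 tested 3 fell (5 without E12 WT 1, 1 without E12 WT 2 or E18 DKO 2), near the 15.9% over all genes tested. Decidual genes summed to 701, 686 and 669 CPM in E18 DKO and 627, 295 and 339 in E12 WT. Of 10 tested 2 rose (5 without E12 WT 1, 1 without E12 WT 2) and 2 fell, against 11.9% and 15.9% over all genes tested. One of those falls was Alpl, an alkaline phosphatase gene that is not restricted to decidua (fell by 5.14 ± 0.83). The part of neighbouring tissue in any result was not tested.

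Nearly every called gene had the same sign when E18 DKO was set against E12 DKO, where genotype and strain are shared. Of the 5044 genes, 5006 had the same sign in both comparisons and 37 the opposite sign, 14 of them higher and 23 lower in E18 DKO than in E12 WT; for 1 gene the second value was 0. Both comparisons use the same E18 DKO libraries, so part of this likeness comes from shared data and no test was made of it. Set against E12 DKO, 8349 of the 18153 genes (46.0%) were called, 4203 higher (23.2%) and 4146 lower (22.8%), and the median size of the change over the 5044 genes was 1.73 on the log2 scale against 1.52 here. Without E12 WT 1, 8116 of the 8727 called genes had the same sign and 608 the opposite sign, 214 higher and 394 lower. The difference between the comparisons is by construction that between E12 DKO and E12 WT, for which 64 genes (0.353%) were called, 17 higher (0.0936%) and 47 lower (0.259%) in E12 DKO.

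**Figure D4:**
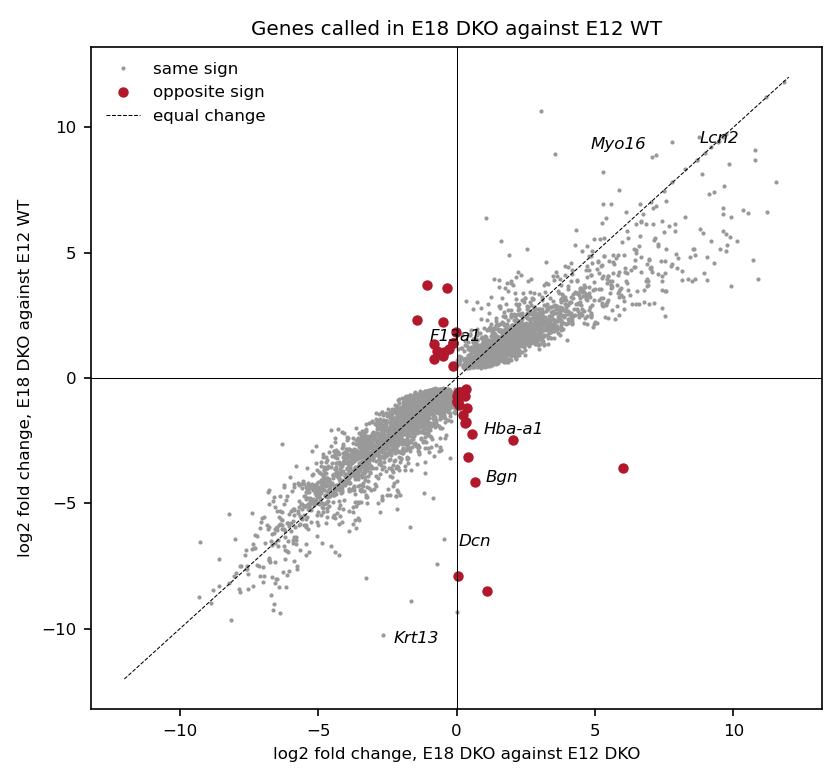
Log2 change from E12 DKO to E18 DKO (horizontal axis) and from E12 WT to E18 DKO (vertical axis) for the 5044 genes called in the second. Grey points have the same sign in both (5006 genes), red points the opposite sign (37 genes), and the dashed line marks equal change; Bgn and Dcn lie far below that line, with little change within the knockout.

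Several list medians lay near each other when read against either E12 group. Mitosis genes had a median log2 difference of -4.21 from E12 WT and -4.59 from E12 DKO, with 32 of 32 lower in each. DNA replication read -2.23 in both, cholesterol synthesis -1.90 and -1.73, and interferon-stimulated genes 2.09 and 2.27. Acute-phase genes read 2.46 from E12 WT and 4.42 from E12 DKO, and immediate early genes 1.52 and 2.79. Without E12 WT 1 their medians from E12 WT were 4.25 and 2.00, nearer to those from E12 DKO. The small leucine-rich proteoglycans read -0.68 from E12 WT, 0.02 without E12 WT 1, and 0.15 from E12 DKO. Differences between list medians were not tested.

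Of the 5044 called genes, 690 were not called within the knockout, and the test between E12 DKO and E12 WT is the test of the difference. It gave an adjusted p of 0.000595 for Bgn, which was called in all 18 other fits, and of 0.0134 for Dcn, which was no longer called when E12 DKO 1, 2 or 3 was left out (adjusted p up to 0.114). Hba-a1, an adult alpha-globin gene whose near-identical copy Hba-a2 makes it uncertain, read 297, 494 and 648 CPM in E18 DKO, 1529, 2395 and 2893 in E12 WT and 154, 499 and 318 in E12 DKO. It fell by 2.24 ± 0.45 here and had a difference of 0.57 within the knockout (adjusted p = 0.302), with the test of the difference at an adjusted p of 0.0371, a call lost in 10 of 18 other fits (adjusted p up to 0.236), among them those without any 1 E12 DKO library. All knockout libraries of either stage lay below all E12 WT libraries.

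In the other direction F13a1, the coagulation factor XIII subunit made by macrophages, read 46, 59 and 63.2 CPM in E18 DKO, 31.8, 31.3 and 29.2 in E12 WT and 86.9, 78.3 and 71.6 in E12 DKO. It rose by 0.87 ± 0.21 from E12 WT (adjusted p = 0.0123; not called against a threshold of a log2 difference of 1), and its value within the knockout was -0.49 (adjusted p = 0.0742), a difference with an adjusted p of 0.0366 whose call was lost in 9 of 18 other fits (adjusted p up to 0.2). The order was E12 DKO highest, E18 DKO next and E12 WT lowest, with no overlap between the groups. Fam129a, a stress-response gene, read 44.9, 32.2 and 64.2 CPM in E18 DKO, 24.5, 14.2 and 15.6 in E12 WT and 46.5, 42.9 and 63.7 in E12 DKO. It rose by 1.38 ± 0.29 from E12 WT against -0.12 within the knockout, and the difference missed the threshold (adjusted p = 0.0591).

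Other genes changed with stage in the knockout and by a different amount from E12 WT. Zdhhc9, a palmitoyltransferase gene, read 18.2, 18.1 and 23.5 CPM in E18 DKO, 186, 152 and 117 in E12 WT and 47.3, 54 and 55 in E12 DKO. It fell by 2.93 ± 0.23 from E12 WT and by 1.38 ± 0.22 from E12 DKO, and the difference had an adjusted p of 0.0255, a call lost in 6 of 18 other fits. Tspo, a mitochondrial outer membrane protein known for its link to steroid synthesis, read 41.7, 25.8 and 31.5 CPM in E18 DKO, 16.9, 10.9 and 11.2 in E12 WT and 3.19, 3.76 and 4.15 in E12 DKO. It rose by 1.35 ± 0.32 from E12 WT and by 3.15 ± 0.34 from E12 DKO (adjusted p of the difference 0.0481, a call lost in 12 of 18 other fits). Both calls, like that of F13a1, were lost without any 1 E12 DKO library and without the libraries labelled E18 WT. Of 36 genes called both here and between the E12 groups, 23 changed less from E12 WT than within the knockout with the same sign, 3 changed more, 9 had opposite signs, and 1 had a value of 0 within the knockout. The count of genes called between the E12 groups ran from 1 to 3199 as single libraries were left out, with 3199 without E12 WT 1 and 1 without E12 DKO 2, and was 2 without the libraries labelled E18 WT.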

How the data were processed

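RNA of fetal membranes was sequenced in 12 libraries, 3 in each of 4 groups. A stranded mRNA kit was used, per the labels' protocols. Trimmomatic 0.36, STAR 2.4.2a and featureCounts of Subread 1.5.0 were used with GRCm38, per the submitters' processing notes. The deposited values are raw counts per gene of Ensembl release 86, with strand option 2 and without reads aligned to several places, per the file headers, so near-identical copies are uncertain. The series table held 48795 genes, 48349 with a symbol. The files of 11 libraries matched 1 of its columns exactly, and E12 DKO 1 was read from that table.

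Genes were filtered with filterByExpr, leaving 18153. All 12 libraries entered 1 quasi-likelihood model of edgeR 4.0.16 (R 4.3.3) with TMM factors and group means. The model was also run on simulated data. These gave all groups the same spread, so that run cannot show how the model handles the unequal spread of these libraries. Calls are an adjusted p under 0.05 (Benjamini-Hochberg over all tested genes). SE is the log2 difference divided by the square root of F. Counts at 0 were bounded by 3 counts, and counting intervals (95%, exact) cover counting error only. The groups follow the labels. The comparison, the 49 gene lists (29 of processes, 20 of markers) and the rules were chosen with earlier results of these data known.

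Named genes were Bgn and Dcn and the 12 largest changes in each direction. These changes were drawn from genes called with and without E12 WT 1, with a mean over 5 CPM and no overlap. Under the same conditions, up to 8 of opposite sign to E18 DKO against E12 DKO were named per direction. So were up to 6 per direction called also between the E12 groups. Up to 4 genes of each list were named by adjusted p. This made 183 in all, and 5 genes were added for their promoters. Some genes that meet the rule are not reported here. Others are said to be named after their values were seen. Alternatives were DESeq2 1.42.0, limma 3.58.1 with voom, other normalisations and filters, a fold threshold, a Y-linked covariate, a replicate block and leaving libraries out. Leaving out E12 DKO libraries, and using only the 6 libraries less E12 WT 1, were added after seeing the data. Promoters come from the RefSeq table (GRCm38.p6). For 4 of the 6 printed promoters the bases after the start were found in an annotated transcript of the gene. The 3 printed per list are the called members of lowest adjusted p that hold the motifs in the 120 bases shown.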

Additional observations from a re-analysis of the deposited data

How the results depend on the processing

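No named gene changed sign under the alternatives run, but the balance of calls did. More genes were lower in the main fit (2160 higher, 2884 lower), and more were higher with limma voom (2666 higher, 2405 lower). Some list medians also changed sign, such as that of basement membrane genes (-0.14, and 0.41 without E12 WT 1). A fit to only the 6 libraries called 1544 genes (662 higher, 882 lower), and that fit less E12 WT 1 called 3322 higher and 3163 lower. With single libraries left out, called genes ran from 2766 to 8727, higher from 1155 to 4303 and lower from 1611 to 4424, and genes of the same sign as E18 DKO against E12 DKO from 2750 to 8116. Opposite signs ran from 11 to 608 (84 with DESeq2's Wald test, 23 with a log2 threshold of 1, 22 without the libraries labelled E18 WT). Calls between the E12 groups ran from 1 to 3199, and numbered 2085 with DESeq2's Wald test, 3 with a Y-linked covariate and 2 without the libraries labelled E18 WT. The difference in embryonic globin share ran from -94.1 to -53.0 percentage points. Correlations did not settle whether replicate numbers pair the libraries. Of 18 same-numbered pairs 5 correlated over 0.1 (-0.176 to 0.288), and the 36 other pairs ran from -0.373 to 0.228. The highest was E12 WT 3 with E18 DKO 3 (0.288). With the replicate block 4838 genes were called (4809 of the same sign, 29 opposite) and 5 between the E12 groups. Of 188 named genes, 117 were called in every alternative that tested them, and the most losses were 55 in the fit to only the 6 libraries and 30 without E12 WT 2. The cause of these changes was not tested. Depth limits genes with few counts in 1 group, for which counting intervals are given.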
